A study of Mus musculus with 6 samples.

Results

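The endoplasmic reticulum (ER) is a single membrane system of flat sheets and thin tubules, and a small set of proteins gives it that form. The genes described here are 10 that act on this form and are not reticulons, namely Reep1, Reep2, Reep3, Reep5, the atlastins Atl1, Atl2 and Atl3, Spast, Arl6ip1 and Ckap4. They were chosen by name, and every probe set that the platform annotation gives to one of them alone was taken. That annotation named 25 probe sets for 8 of the 10 genes. It named none for Atl2 or Arl6ip1, which were not analysed here. In all, 34945 of the 45101 probe sets on the array had 1 gene symbol, and they named 18193 genes.

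The study set intact spinal cord of Nogo-A knockout mice against that of wild type mice, in untreated males of the strain C57Bl/6 aged 4 months, with 3 animals of each genotype and 1 Affymetrix mouse array per animal. Nogo-A is the longest product of the reticulon gene Rtn4. The labels call the animals Nogo-A KO or Nogo-A knockout C57Bl/6, give no detail of the allele and name no other alteration in either group. The labels number the animals within a genotype but do not say that equal numbers share a litter or a day. In a bulk sample of this kind, fewer cells of a type and less RNA per cell cannot be told apart.

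Reticulons and REEPs are hairpin proteins that wedge into the outer leaflet of the ER membrane and bend it into tubules. Atlastins are GTPases that fuse tubules into a network, spastin cuts microtubules and is found at the ER beside atlastin and REEP1, and CKAP4 is a coiled-coil protein that holds the lumen of ER sheets at an even width. Long axons hold mostly tubular ER, and mutations in the human counterparts of Spast, Atl1 and Reep1 cause hereditary spastic paraplegia, in which long corticospinal axons degenerate. Because Nogo-A is itself a reticulon protein, the question for these genes is whether its loss came with another level of the other ER shapers.

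The promoter sequences of the 3 genes whose brightest tested probe set separated the genotypes, Ckap4, Atl3 and Reep1, are shown to give the regulatory DNA beside the signals. Each is the 250 bases before the RefSeq transcription start on GRCm38.p6, written 5′ to 3′ along the gene. Capitals mark CCAAT and CCACG, which make up the ends of the ER stress response element, and the GC box GGGCGG, on either strand.

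Ckap4, chr10:84533889-84534138, minus strand: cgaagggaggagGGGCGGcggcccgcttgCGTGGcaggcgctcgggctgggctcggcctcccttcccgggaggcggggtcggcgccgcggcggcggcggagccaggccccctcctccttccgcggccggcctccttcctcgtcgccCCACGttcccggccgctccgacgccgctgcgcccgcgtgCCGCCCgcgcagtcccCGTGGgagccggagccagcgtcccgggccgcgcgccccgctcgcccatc

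Atl3, chr19:7494188-7494437, plus strand: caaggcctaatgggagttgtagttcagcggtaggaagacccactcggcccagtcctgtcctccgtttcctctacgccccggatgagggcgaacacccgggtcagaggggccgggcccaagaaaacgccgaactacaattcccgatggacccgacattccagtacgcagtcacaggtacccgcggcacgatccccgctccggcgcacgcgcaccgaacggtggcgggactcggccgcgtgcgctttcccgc

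Reep1, chr6:71707431-71707680, plus strand: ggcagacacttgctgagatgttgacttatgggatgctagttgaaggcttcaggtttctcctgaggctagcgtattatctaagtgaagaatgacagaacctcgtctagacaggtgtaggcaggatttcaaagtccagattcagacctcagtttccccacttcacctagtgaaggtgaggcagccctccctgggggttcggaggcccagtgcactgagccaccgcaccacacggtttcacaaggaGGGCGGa

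The Ckap4 window held 3 matches to CCACG and 2 to GGGCGG, the Reep1 window held 1 match to GGGCGG, and the Atl3 window held none of the 3 motifs. The marked matches do not overlap one another. Among 32841 promoter windows of the same length, 28.4% held CCACG, 33.9% CCAAT and 32.7% GGGCGG. The whole element, CCAAT and CCACG 9 bases apart, was in 0.113% of windows and in none of these 3. The windows were 82.4%, 65.6% and 53.2% G and C in the order shown, against a median of 52.4% over all windows. A match describes the letters and is no evidence of binding. RefSeq windows were found for 7 of the 10 genes.

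Signals are the authors' MAS 5.0 intensities, a linear scale on which the trimmed mean of every array was 500. A probe set was tested where at least 2 of 3 arrays of a genotype reached the median of their own array, and 23525 probe sets did so, among them 19 of the 25 here. The median signal of an array was 148 to 196 in wild type and 144 to 149 in knockout, and the highest wild type value, that of replicate 3, was also the array least like the others (mean correlation of 0.930, against 0.952 to 0.961). The loss of Nogo-A was visible in Rtn4, where 1 probe set had a mean signal of 3051 ± 441 in wild type animals against 30.8 ± 41.1 in the knockouts (SD, 3 arrays each, limma with Benjamini-Hochberg adjusted p = 0.0151), while the other 4 probe sets of the gene were higher in each knockout array than in any wild type array. Marker genes of the labelled tissue were found, with 7 of 8 neuronal, 7 of 8 oligodendrocyte and 6 of 6 astrocyte markers tested. Skeletal muscle markers had a summed signal of 1528, 2797 and 8993 in wild type and 2503, 18552 and 2168 in knockout, so wild type replicate 3 and knockout replicate 2 stood apart in them.

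No ER shaper passed the test. Of the 19 tested probe sets, 0 had a limma adjusted p under 0.05, where the background over all tested probe sets was 0% higher and 0.00425% lower in knockout, that is 1 probe set of Rtn4. At an unadjusted p under 0.05, 4 were higher in knockout, against 4.31% of all tested probe sets, and 1 was lower, against 3.98%. The 4 are not independent, since 3 of them measure Reep5 and 1 measures Ckap4. The lower one belongs to Atl3. In 3 probe sets (15.8%) every knockout array lay above every wild type array, against 7.85% of all tested, and in 1 (5.26%) every knockout array lay below, against 6.62%. In either direction the background was 8.29% for the unadjusted p and 14.5% for separated genotypes. By the methods' t-test, at an unadjusted p under 0.05 and a fold of at least 1.2, 1 was higher and 1 lower, where the background was 2.24% and 2.59%, and 0 of 23525 probe sets passed that test after adjustment.

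These counts moved with the scaling of the arrays, and so did the background. With each array divided by its median, 6 were higher and 0 lower at an unadjusted p under 0.05, against 11.9% and 1.13% of all tested probe sets. The genotypes separated upwards in 6 and downwards in 0, against 19.9% and 2.07%, and Reep2, the third Reep5 probe set and the brighter Spast probe set joined the separated ones while Atl3 left them. After quantile normalization 2 were higher and 0 lower at that p, against 3.67% and 2.8%. Then 1 separated upwards, that of Ckap4, and 1 downwards, that of Atl3, against 7.16% and 5.48%.

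**Figure D1:**
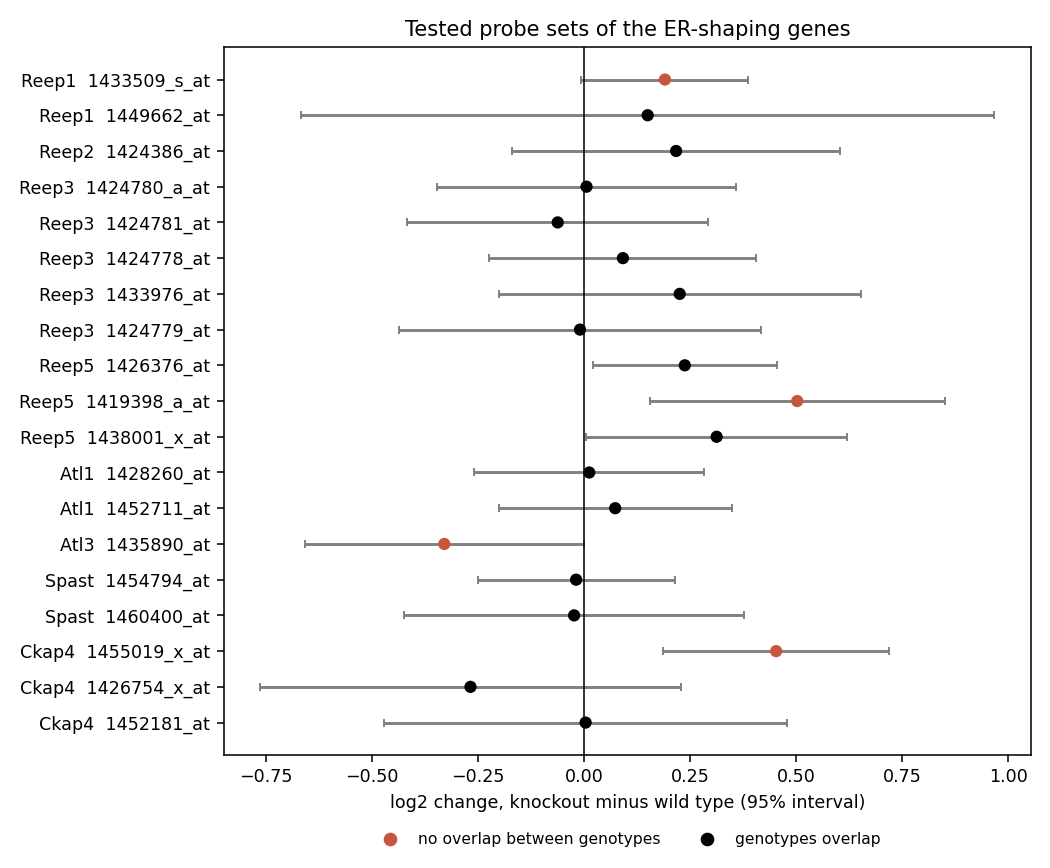
Fitted log2 change (x axis, knockout minus wild type) of the 19 tested probe sets, named on the y axis by gene and probe set, with 95% intervals from limma. Red points mark the 4 probe sets whose genotypes did not overlap, and 5 intervals, those of Reep5, Atl3 and the brightest Ckap4 probe set, do not reach 0 although every adjusted p is 0.591 or more.

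Taken gene by gene at the brightest tested probe set, 6 of 8 log2 changes were above 0, with a median of 0.10. Over all tested probe sets the median was 0.0079, and 51.4% were above 0. The 2 medians are not like for like, since only brightest probe sets stand for the genes. Over all probe sets kept by the 75th percentile filter, which drops dimmer signals, the median was 0.049. With each array divided by its median, the median over all tested probe sets was 0.23 and that of these genes 0.32. That division shifts the change of every probe set by the same amount. The distance between these medians, 0.094, therefore had to be the same as on the deposited scale. After quantile normalization the median was 0.031, beside 0.019 over all tested probe sets, and 4 of 8 genes were above 0. Taking the mean of all tested probe sets of a gene, the median was 0.057. On single arrays, the median of the 8 genes relative to the wild type mean was 0.077, 0.011 and -0.016 in wild type and 0.11, 0.072 and 0.13 in knockout, and the genotypes overlapped.

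Among the tubule-bending genes, Reep5 had a higher mean in knockout at each of its 3 probe sets, as did Reep1 and Reep2 at theirs. REEP5 is the ER tubule protein also called DP1. Its brightest probe set, 1426376_at, read 5687, 5019 and 5272 in wild type and 6516, 5645 and 6704 in knockout. Knockout replicate 2 lay below wild type replicate 1, so the genotypes overlapped. The means were 5326 ± 337 and 6288 ± 565 (SD, n = 3 each), a fold of 1.18 with a 95% interval of 1.01 to 1.37 (limma adjusted p = 0.595).

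The second Reep5 probe set, 1419398_a_at, read 3533, 2566 and 4082 in wild type and 4948, 4108 and 5176 in knockout. Here all knockout arrays lay above all wild type arrays, although knockout replicate 2 exceeded wild type replicate 3 by little. Its fold of 1.42, with an interval of 1.11 to 1.80, was the largest of the 19 (limma adjusted p = 0.591). The suffix a marks a probe set that reads several transcripts of 1 gene. Without wild type replicate 2 its log2 change was 0.31 in place of 0.50, and without wild type replicate 3 it was 0.65.

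The third, 1438001_x_at, read 2424, 1959 and 2864 in wild type and 2785, 2821 and 3316 in knockout. Wild type replicate 3 was above 2 knockout arrays, so the genotypes overlapped. The fold was 1.24 (limma adjusted p = 0.599). Wild type replicate 2 was the lowest array at all 3 probe sets, and without it the log2 changes were 0.20, 0.31 and 0.17 in the order given. After quantile normalization they were 0.15, 0.43 and 0.24, and the second no longer separated the genotypes. The difference between the first and second probe sets on an array is not moved by a single factor per array, though quantile normalization can move it. On the deposited log2 scale it was 0.67 ± 0.30 in wild type against 0.41 ± 0.044 in the knockouts (SD, n = 3 each) and overlapped between genotypes.

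Reep1, Reep2 and Reep3 belong to the same family, and Reep1 and Reep2 are mostly neuronal. Reep1 at 1433509_s_at read 4502, 4113 and 4168 in wild type and 4641, 4880.3 and 5066 in knockout, so all knockout arrays were above all wild type arrays. The fold was 1.14 with an interval of 0.996 to 1.31 (limma adjusted p = 0.607). The separation was lost after quantile normalization, where the log2 change was 0.11 in place of 0.19. The suffix s means that the probes can also read other genes. The other Reep1 probe set, 1449662_at, was dim, with 99.2 to 227 in wild type and 148 to 205 in knockout. Its interval of 0.630 to 1.96 as a fold is too wide to check the first.

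Reep2, which had 1 probe set, read 399, 462 and 528 in wild type and 496, 479 and 645 in knockout. The ranges overlapped and the fold was 1.16 with an interval of 0.889 to 1.52 (limma adjusted p = 0.744). The value turned on single animals, with a log2 change of 0.082 without knockout replicate 3 and 0.32 without wild type replicate 3, beside 0.22 with all 6 arrays. With arrays divided by their median, every knockout array of Reep2 lay above every wild type array. The same held for 19.9% of all tested probe sets in that scaling.

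Reep3, a widely expressed member that helps clear ER from mitotic chromosomes, had 5 tested probe sets, and their log2 changes lay on both sides of 0. The brightest, 1424780_a_at, read 3211, 2583 and 2012 in wild type and 2698, 2807 and 2229.9 in knockout. The wild type arrays spanned a wider range than the knockout arrays and enclosed all 3 of them. The fold was 1.00 with an interval of 0.787 to 1.28 (limma adjusted p = 0.995). The other 4 had log2 changes of -0.062, 0.092, 0.23 and -0.0097, with adjusted p-values of 0.760 to 0.993 in limma. Wild type replicate 3 was the lowest of the 6 arrays at 4 of the 5, and without it the 5 changes were -0.17, -0.24, 0.0021, 0.0067 and -0.027. A sixth probe set of Reep3 lay under the array median on all 6 arrays, with 70.7 to 185 in wild type and 67.4 to 86.9 in knockout.

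Of the fusion GTPases, Atl1, the neuronal atlastin, differed little in mean. At 1428260_at it read 3908, 3810.1 and 2926 in wild type and 3812, 3558 and 3293 in knockout, with means of 3548 ± 541 and 3555 ± 259 (SD, n = 3 each). Wild type replicate 3 was the lowest array and the other wild type arrays were close to the highest knockout array. The fold was 1.01 with an interval of 0.836 to 1.22 (limma adjusted p = 0.986). The second probe set, 1452711_at, had a fold of 1.05 with an interval of 0.870 to 1.27, and wild type replicate 3 was again the lowest, at 1707. Without that array the log2 changes were -0.12 and -0.060 in place of 0.012 and 0.073. Since the first interval reaches 1.22, beyond the fold of 1.18 at the brightest Reep5 probe set, it does not show that Atl1 was the same in both genotypes.

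Atl3, the atlastin found mainly outside neurons, had the only lower value among the separated probe sets. At 1435890_at it read 583, 627 and 592 in wild type and 521, 415 and 503 in knockout, with every knockout array below every wild type array. The means were 601 ± 23.0 and 480.0 ± 56.6 (SD, n = 3 each), a fold of 0.796 with an interval of 0.634 to 0.999 (limma adjusted p = 0.600). Knockout replicate 2 was the lowest, and without it the log2 change was -0.23 in place of -0.33. The genotypes also separated after quantile normalization, with a change of -0.30, but not with arrays divided by their median, where the change was -0.11, or -0.34 relative to the median of 0.23 over all tested probe sets. The other 4 probe sets of Atl3 lay under the array median on all 6 arrays and were not tested. The one with the highest mean of these 4 read 103, 122 and 145 in wild type and 111, 101 and 124 in knockout, and the dimmest had 5.43 to 11.6 and 2.86 to 56.6. No second measure of Atl3 was therefore above the dim range.

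Spast, whose protein severs microtubules, had close means at both of its probe sets. At 1454794_at it read 1368, 1534 and 1491 in wild type and 1443, 1420.3 and 1468 in knockout. All 3 knockout arrays fell inside the wild type range. The fold was 0.987 with an interval of 0.840 to 1.16 (limma adjusted p = 0.974), and only the brightest probe sets of Reep1 and Reep5 had narrower intervals as a ratio of the ends. The second probe set, 1460400_at, read 439, 492 and 622 in wild type and 492, 597 and 435 in knockout, with a fold of 0.984 and an interval of 0.745 to 1.30.

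**Figure D2:**
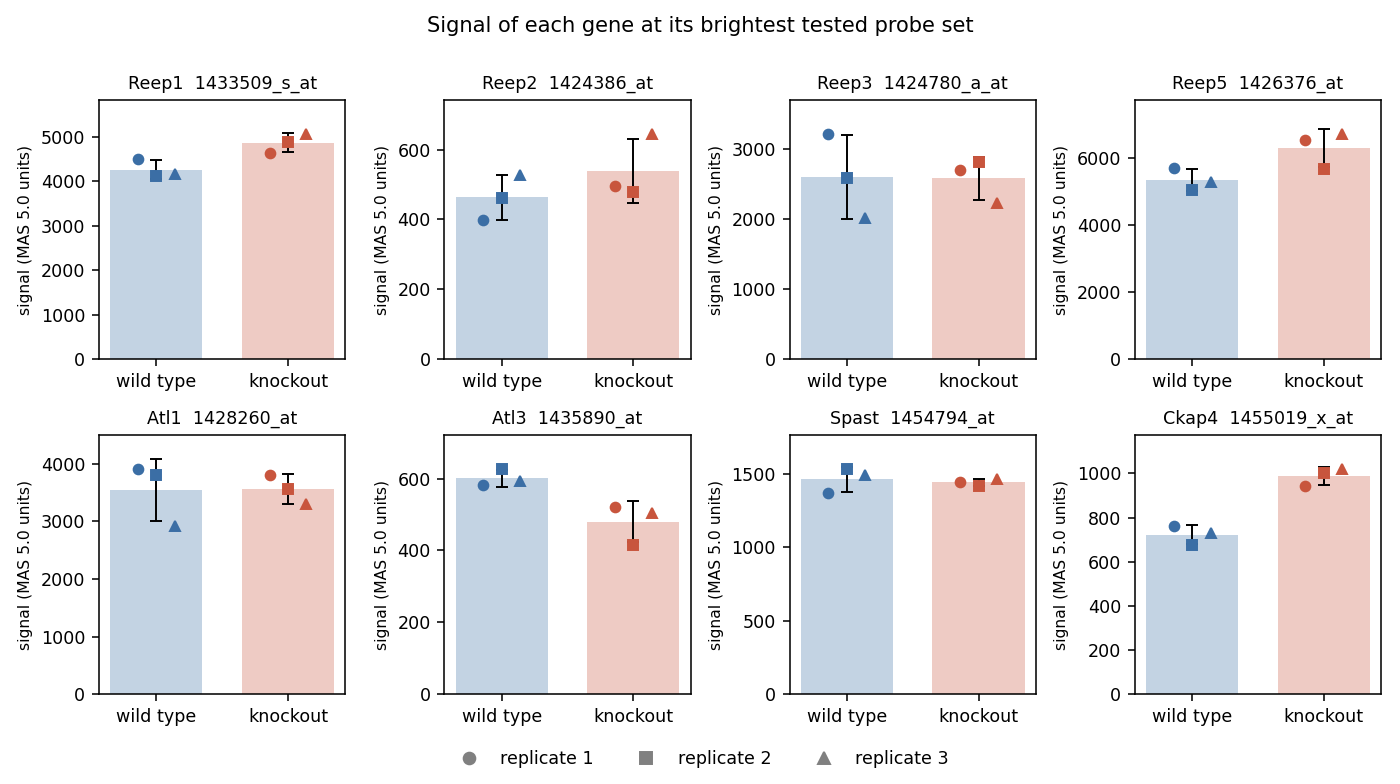
Signal in MAS 5.0 units (y axis, linear from 0) of the 8 measured genes at their brightest tested probe set, in wild type and knockout. Bars are means, error bars are the SD of 3 animals, and symbols give the replicate number, which does not pair the animals. Ckap4 separates upwards (676 to 760 against 943 to 1020), Reep1 by less, Atl3 downwards (583 to 627 against 415 to 521), and the other 5 genes overlap.

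Ckap4, the gene of the sheet-spacing protein, had the smallest unadjusted p at its brightest probe set. It had 3 tested probe sets, and their log2 changes lay on both sides of 0. At 1455019_x_at it read 759.8, 676 and 731 in wild type and 943, 1002 and 1020 in knockout. The gap between the highest wild type and the lowest knockout array was larger than the range within either genotype. The fold was 1.37 with an interval of 1.14 to 1.65 (limma adjusted p = 0.591, and 0.196 to 0.967 over the other settings). Its log2 change was 0.41 to 0.49 when any 1 array was left out, and 0.45 after quantile normalization.

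The second Ckap4 probe set, 1426754_x_at, read 291, 267 and 317 in wild type and 297, 239.8 and 199 in knockout. Its genotypes overlapped and its fold of 0.831 (interval 0.589 to 1.17, limma adjusted p = 0.753) lay on the other side of 1. The third, 1452181_at, read 256, 227 and 316 against 263, 253 and 278, a fold of 1.00 with an interval of 0.721 to 1.39. The last one, 1426755_at, reached the array median on 2 of 6 arrays and was not tested. The suffix x, which the first and second Ckap4 probe sets and the third of Reep5 carry, marks probes that are identical or very similar to other transcripts, and which ones is not given in the sources used here.

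Differences between probe sets on the same array are not moved by a single factor applied to that array, but quantile normalization can move them. After quantile normalization the log2 changes of the 3 tested Ckap4 probe sets were 0.45, -0.14 and 0.13. The differences that follow are on the deposited scale. The brightest minus the second Ckap4 probe set was 1.38, 1.34 and 1.20 in wild type and 1.67, 2.06 and 2.36 in knockout on the log2 scale. The brightest minus the third was 1.57, 1.57 and 1.21 in wild type and 1.84, 1.99 and 1.88 in knockout. In both, all knockout arrays lay above all wild type arrays, by 0.72 and 0.45 in the mean, so the probe sets of Ckap4 did not move in proportion.

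**Figure D3:**
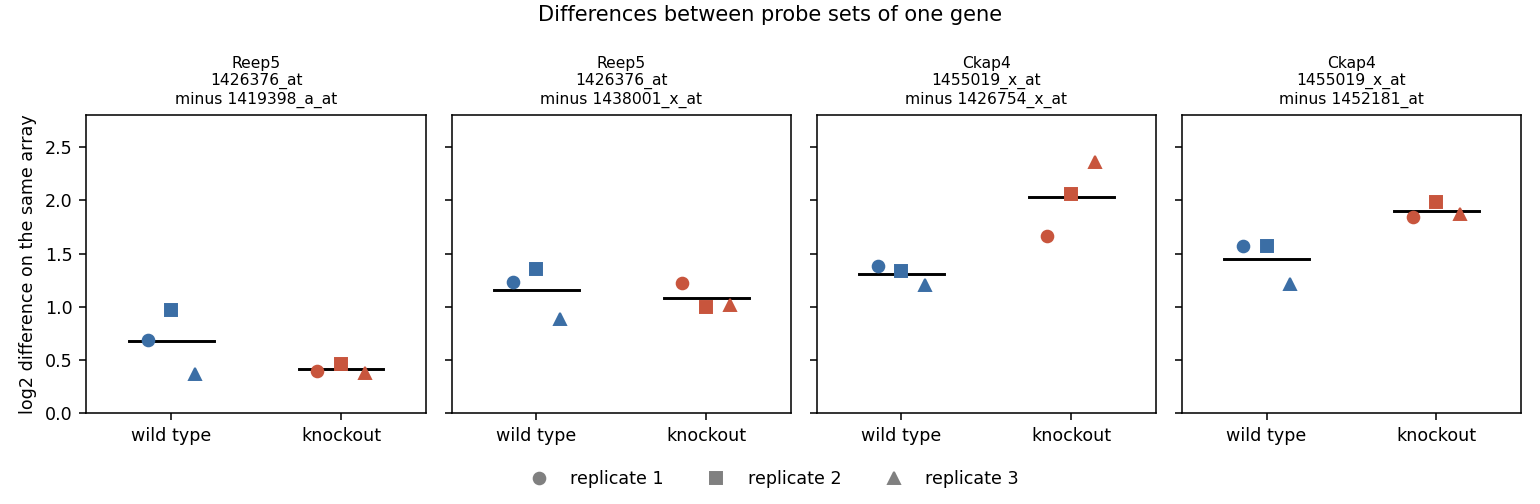
Difference in log2 signal between the brightest probe set of a gene and each other tested one on the same array (y axis), for Reep5 and Ckap4 in wild type and knockout. Symbols are single arrays and black lines are means of 3. In Ckap4 the knockout arrays lie above the wild type arrays in both panels, while in Reep5 they overlap in both. The panels of a gene share its brightest probe set and are not independent.

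No listed cell type marker passed the adjusted threshold in limma. On the deposited scale, the summed signals of 3 marker lists did not overlap between the genotypes. The sums of neuron, astrocyte, microglia, endothelium, skeletal muscle, blood and dorsal root ganglion markers overlapped. That of the other ER-shaping genes described below, Rtn4 among them, separated too, at 65573 to 77446 and 82050 to 83096. These sums have no background share beside them and are not read as a result. Of 8 tested markers of meninges and fibroblasts, 5 were higher and 1 lower in knockout at an unadjusted p under 0.05. The background was 4.31% and 3.98% of all tested probe sets. The summed signal of the 8 was 7791 to 10190 in wild type and 11335 to 12700 in knockout, without overlap. Among the higher ones Col1a1 had means of 254 ± 40.0 and 521 ± 213 and Col1a2 had 1598 ± 319 and 2437 ± 263 (SD, n = 3 each), both with limma adjusted p = 0.591. The lower one was Lum, with a log2 change of -0.47 and no overlap (limma adjusted p = 0.591). Igf2 had a change of -0.024, with overlap. The summed signal of 7 oligodendrocyte markers was 106564 to 110512 in wild type and 121946 to 134973 in knockout. Within it, Mbp had means of 39242 ± 1080 and 48421 ± 3798, and Cnp 23678 ± 1806 and 29015 ± 1636 (SD, n = 3 each). The summed signal of 3 tested Schwann cell markers was 13544 to 15801 and 16306 to 22851. Most of the Schwann cell sum came from Pmp22, at 12305 to 14781 in wild type and 15291 to 21468 in knockout. Ncmap and Egr2 overlapped between genotypes, with folds of 1.28 and 0.801. In both the oligodendrocyte and the neuronal list, 3 of 7 tested markers separated upwards, against 7.85% of all tested probe sets. The oligodendrocyte markers Cldn11 and Mog had log2 changes of -0.067 and -0.039, with overlap. The neuronal markers Slc17a6 and Slc6a5 had -0.050 and -0.044, also with overlap. The summed neuronal signal overlapped, at 69332 to 86010 and 84942 to 86422. Of 4 tested endothelium markers, 0 were higher and 1 was lower at an unadjusted p under 0.05. The lower one was Pecam1, with a log2 change of -0.62 and no overlap (limma adjusted p = 0.594). No marker was listed at 0 on any array. The part of these markers in the values of Ckap4, Reep5 or any other gene here was not tested.

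**Figure D4:**
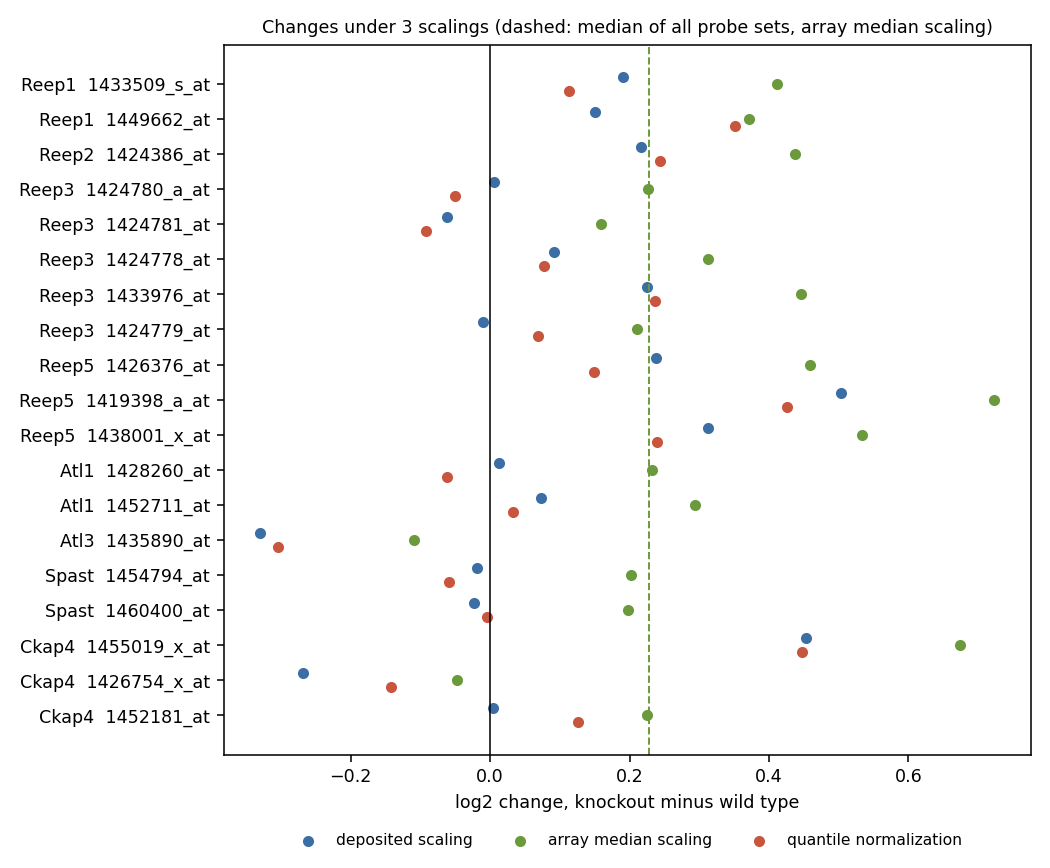
Log2 change of each tested probe set (x axis, knockout minus wild type) under the deposited scaling, with arrays divided by their median, and after quantile normalization. The dashed line at 0.23 is the median change of all tested probe sets in the second of these. The Ckap4 probe set 1455019_x_at and all 3 of Reep5 are above 0 in each, Atl3 is below 0 in each, and the brightest probe sets of Reep3, Atl1 and Spast change sign between them.

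Other genes that act on ER form are given beside these. Of 22 listed, 18 were tested, 0 passed the adjusted threshold in limma, and 2 were higher and 1 lower at an unadjusted p under 0.05, beside 2 higher and 1 lower of the 8 genes above and 4.31% and 3.98% of all tested probe sets. Their median log2 change was 0.090 (0.016 after quantile normalization). The 2 higher ones were reticulons, Rtn4 itself at its brightest probe set, with a fold of 1.32, and Rtn1, which read 7434, 6832 and 6697 in wild type and 7652, 7699 and 8996 in knockout, a fold of 1.16. The lower one was Jagn1, an ER membrane protein of the secretory pathway, which read 1250.4, 1395 and 1355 in wild type and 928, 1007 and 1069.7 in knockout, a fold of 0.751 without overlap (limma adjusted p = 0.591). Rrbp1 and Ktn1, picked out after their values were seen because they are sheet proteins like Ckap4, had log2 changes of 0.14, with the genotypes separated, and 0.088, with overlap (limma adjusted p = 0.734 and 0.824).

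General ER genes and other genes of spastic paraplegia were given as a measure of how far such lists move on these arrays. Of 20 tested translocon and chaperone genes, 1 was higher and 0 lower at an unadjusted p under 0.05, with a median log2 change of 0.051 (-0.017 after quantile normalization). That gene was Calr, a calcium-binding chaperone, whose mean was 5518 ± 343 in wild type animals against 6586 ± 539 in the knockouts (SD, n = 3 each). Hspa5, the main ER stress chaperone, also picked out afterwards, had a log2 change of 0.038 and overlapped. Of 24 tested genes mutated in other spastic paraplegias, 2 were higher and 1 lower at that threshold, with a median of 0.077 (0.013 after quantile normalization). The higher ones were the adhesion molecule L1cam, with a fold of 1.22, and the vesicle motor Kif1a, with 1.21, and neither passed after adjustment in limma (0.594 and 0.595).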

How the data were processed

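The deposited intensities are on a linear scale. Per the labels and the submitters' processing notes, the authors made them with MAS 5.0 in GCOS 1.4, and every array had the same trimmed mean. The later GeneSpring steps of the design text are not part of them. The log2 of each intensity was taken on the deposited scale. With 64 control probe sets left out, limma 3.58.1 (R 4.3.3, intensity trend) was fitted to 23525 probe sets at or above their array's 50th percentile on at least 2 of 3 arrays of a genotype, and p-values were adjusted by Benjamini-Hochberg over all of these. These p-values set the difference between genotypes against the spread between animals, 3 a group. limma draws that spread towards the spread of probe sets of like intensity. The number of animals limits the precision. The model was tested on simulated data.

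Symbols came from the platform's annotation and were brought up to date with RefSeq (GRCm38.p6). The tested probe set with the highest mean stood for its gene. Named were all probe sets of the ER shapers and every probe set of Rtn4. Of other lists, up to 4 genes with an unadjusted p under 0.05 and separated genotypes could be named, and not all were. Lum, Igf2, Cldn11, Mog, Slc17a6, Slc6a5, Ncmap and Egr2 were named outside that rule, as markers that were lower or overlapped. Rrbp1, Ktn1 and Hspa5 were added after their values were seen. The members and lists were chosen with earlier results of these data known. Alternatives were array median scaling, quantile normalization, 3 other filters on dim signals, an offset, a fit with no trend, the replicate number as a block, single arrays omitted, gene means and, added after seeing the data, the omission of both arrays with most muscle signal.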

Additional observations from a re-analysis of the deposited data

How the results depend on the processing

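No tested ER-shaping probe set passed the adjusted threshold in limma under any of the 15 other settings in which they were fitted, and the smallest adjusted p of any was 0.108, for Reep5 without wild type replicate 3 and knockout replicate 2. In 279 pairs of probe set and setting the log2 change had the other sign in 33, none in Reep2, Reep5, Atl3 or the brightest probe sets of Reep1 and Ckap4, and all with an interval that held 0. Over all probe sets, 1 passed in the main setting, 0 without the intensity trend, 0 by the methods' t-test after adjustment, and 3 without wild type replicate 3 and knockout replicate 2 together. Leaving out single arrays gave 0 to 9, with 9 when the first wild type array was omitted, 3 for the third, and 0 for the second or for knockout replicate 2.

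Of the ER-shaping probe sets, 4 separated the genotypes, against 2 after quantile normalization and 11 of 19 without wild type replicate 3 and knockout replicate 2, a setting in which 46.7% of all tested probe sets separated. Leaving out single arrays gave 4 to 7, with 7 on omission of the first or of the third wild type array, where the share over all tested probe sets was 32.7% and 29.9%, and with 21.2% to 25.3% for the other arrays. The methods' t-test called 2 of them, 4 with arrays divided by their median, 1 without the 2 arrays together, and 1 to 2 with single arrays left out, the lower count on omission of any wild type array or of knockout replicate 3. The share of all tested probe sets called by that test is given here only for the main setting, 2.24% higher and 2.59% lower. The other counts therefore have no background beside them and are not read as a result about these genes. The median log2 change of the 8 genes, 0.10, was 0.32 with arrays divided by their median and 0.031 after quantile normalization. With the 75th percentile filter, which dropped Reep2, it was 0.012, below the 0.049 over all probe sets tested in that setting. It was 0.057 with the mean of all tested probe sets of a gene. With single arrays left out it was 0.085 to 0.14, the highest without wild type replicate 1. The causes were not tested.

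The replicate numbers were not taken as pairs, since the labels do not pair them and the deviations of equally numbered arrays correlated at -0.035, 0.074 and 0.11. Wild type replicate 1 was most like knockout replicate 2, at 0.080. Wild type replicates 2 and 3 were each most like the knockout of the same number. With the replicate block, 4 probe sets passed over the whole array, 3 higher and 1 lower, and none of these genes did. Signals under the array median left 4 of the 5 probe sets of Atl3 untested.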
